A study of Mus musculus with 16 samples.

Results

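*Cmtm4*, *Atxn1l*, *Otud3*, *Ino80d*, *Rnf41*, *Fam168b*, *Tmem248*, *Zbtb34*, *Gxylt1* and *Xpo4* are 10 protein-coding genes chosen by their measured RNA level, which was higher in apoE4 treated neurons than in the control neurons of these data. They are 10 of the 48397 genes counted, and all 10 passed the filter on low counts, which 17038 genes passed. Since the difference between apoE4 and control chose them, its values are given here as a description. The comparison of apoE3 with apoE2 is the one that shares no group with that difference, although its fit takes the estimate of spread from all 16 libraries. The genes were brought together as having long 3′ untranslated regions (3′UTRs), which holds for 8 of them but not for *Otud3* and *Rnf41*.

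RNA was sequenced from primary hippocampal neurons of wild type CD1 mouse pups, taken at postnatal day 0 to 2, in 4 groups of 4 independent cultures each. All cultures received cytosine arabinoside at 3 days in vitro (DIV) to limit dividing non-neuronal cells, then 10-fold concentrated medium of astrocytes at 10 and 13 DIV, and were lysed at 17 DIV. The astrocytes carried human apoE2, apoE3 or apoE4 in place of the mouse gene, and those of the control group were *Apoe*-/-, so that control neurons received astrocyte medium without apoE. The astrocytes were immortalized and made their media with 25-hydroxycholesterol in all groups. A property of an astrocyte line other than its apoE isoform cannot be told apart from the isoform. Replicate numbers 1 to 4 are shared by the groups, and libraries of the same number deviated together.

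The 16 libraries held 14087723 to 34248172 reads counted on genes, with a median of 22221832, while 38.36 to 73.75% of the reads were assigned to no single gene. Levels are given as CPM (the count scaled to a common library size, after TMM), in which no account is taken of gene length. The 7 neuron markers summed to 3137 to 7062 CPM, against 513.4 to 5926 CPM for the 7 astrocyte markers and 5.829 to 29.07 CPM for the 6 microglia markers, and the endothelial markers *Cldn5* and *Cdh5* were too low to test. The cultures were sequenced in bulk, so fewer cells of a type and less RNA per cell cannot be told apart.

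The 3′UTR is the part of a messenger RNA that follows the stop codon. It is not translated, and it holds the sites at which microRNAs (miRNAs) and RNA-binding proteins act on stability and translation. A miRNA pairs with its target mainly through its seed, bases 2 to 8, and the Argonaute protein that carries it recruits factors that shorten the poly(A) tail and remove the cap. Neurons are known for long 3′UTRs, many of them with sites for neuronal miRNAs such as miR-128, miR-132 and miR-34.

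The longest annotated 3′UTR (GENCODE M21, mouse genome GRCm38) had a median of 4806.5 bases over the 10 genes, against 1212 bases over the 13961 tested genes with one. *Ino80d*, at 10182 bases, was longer than 99.67% of those genes, and *Cmtm4*, at 6936 bases, longer than 98.42%. *Gxylt1* (5412), *Atxn1l* (5114), *Zbtb34* (4863), *Xpo4* (4750) and *Fam168b* (4203 bases) were each longer than at least 92.62%. *Tmem248*, at 2467 bases, lay just above the upper quartile of 2346 bases. *Rnf41*, at 1954 bases, was longer than 68.21% of tested genes, and *Otud3*, at 359 bases, than 17.44%. In the annotation used here *Otud3* therefore had a 3′UTR shorter than most.

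The longer 3′UTRs held sites for miRNAs of the brain, as did many other 3′UTRs of their length, and the sequences below show examples from 6 of the genes. The mature sequences of miR-128-3p, miR-132-3p and miR-34a-5p, from RefSeq on GRCm38.p6, are shown with the seed in capitals because, of the 19 brain miRNAs searched, theirs were the sites in the most members. miR-124-3p was also listed but not searched.
mmu-miR-128-3p: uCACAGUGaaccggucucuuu
mmu-miR-132-3p: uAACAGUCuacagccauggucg
mmu-miR-34a-5p: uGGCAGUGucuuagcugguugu

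A site was counted where the 3′UTR held the complement of the seed, CACTGTG for miR-128-3p, GACTGTT for miR-132-3p or CACTGCC for miR-34a-5p, on the strand of the transcript. The windows below are those of the 3 miRNAs in which an A follows the site, which makes an 8-base match, with the 7-base site in capitals and positions on GRCm38, all on the minus strand and all in 3′UTR exons.
Ino80d, miR-128-3p, chr1:63051896-63051918: tcactaaggaattccCACTGTGa
Gxylt1, miR-128-3p, chr15:93242632-93242654: cagccccacgtgttcCACTGTGa
Ino80d, miR-132-3p, chr1:63055760-63055782: ggagtagtcaatttgGACTGTTa
Zbtb34, miR-132-3p, chr2:33408404-33408426: caaacattgtaatggGACTGTTa
Xpo4, miR-132-3p, chr14:57579786-57579808: tttccaattcaaactGACTGTTa
Cmtm4, miR-34a-5p, chr8:104348798-104348820: tctgccaggactggcCACTGCCa
Fam168b, miR-34a-5p, chr1:34814090-34814112: ttgtggtatatctggCACTGCCa
Gxylt1, miR-34a-5p, chr15:93242046-93242068: tcagtgctcgctgtgCACTGCCa

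The miR-128-3p site was in 7 members (*Cmtm4*, *Ino80d*, *Fam168b*, *Tmem248*, *Zbtb34*, *Gxylt1* and *Xpo4*), in 22.76% of tested genes and in 55.23% of the 822 genes with a 3′UTR of 4 to 6 kb. The miR-132-3p site was in 6 members, in 12.91% of tested genes and in 34.06% of those with 4 to 6 kb. The miR-34a-5p site was likewise in 6 members, in 17.41% of tested genes and in 38.44% of those with 4 to 6 kb. Over all 19 brain miRNAs searched, the members held 100 sites of 7 bases, or 2.163 per kb of 3′UTR, against 2.109 per kb over the tested genes. Per length, then, the members were close to the background. *Zbtb34* held 20 sites, at 4.113 per kb the densest, *Ino80d* held 21 at 2.062 per kb, and *Otud3* held 0. The site of miR-27b-3p, ACTGTGA, overlaps that of miR-128-3p, and both were counted at the same place in *Ino80d* and *Gxylt1*.

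Elements of RNA-binding proteins gave a similar picture. The Pumilio element TGTANATA was in 5 members at 0.2811 per kb, against 0.2376 per kb and 27.1% of the tested genes. It was in 58.76% of the genes with 4 to 6 kb. The AU-rich element TATTTAT was in 7 members at 0.2595 per kb, against 0.2931 per kb and 30.83% of the tested genes, and in 64.36% of those with 4 to 6 kb. These matches are letters in the annotated sequence, and neither the miRNAs nor the proteins were measured.

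The level of each member in every library is given next, by the role of its protein, with the log2 fold change of apoE4 against control and its standard error (SE).

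**Figure D1:**
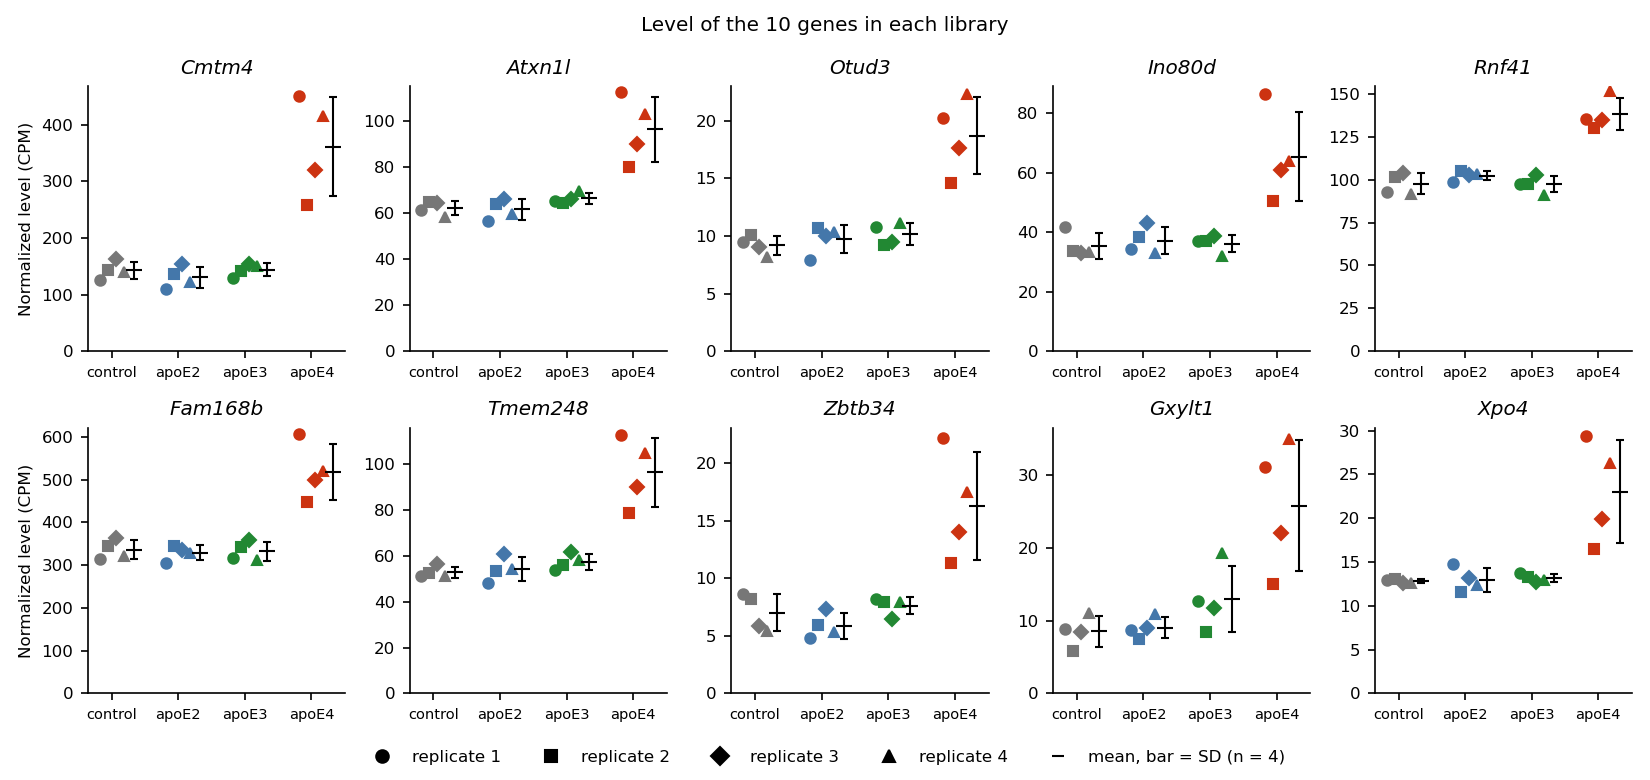
Level of each of the 10 genes in CPM (vertical axis, from 0) in the 16 libraries, by group (horizontal axis), with the marker shape giving the replicate number and black bars the mean and SD of 4. The apoE4 libraries lie above the control libraries for every gene, and some apoE2 and apoE3 libraries also lie above the controls, such as apoE3 replicate 4 for *Gxylt1* at 19.23 CPM. ApoE4 replicate 2 (square) is the lowest apoE4 library in all 10.

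*Cmtm4* (chr8:104348191-104395807, minus strand) encodes a membrane protein with a MARVEL domain that is known to stabilize PD-L1 at the cell surface together with Cmtm6. In replicates 1 to 4 *Cmtm4* was at 125, 144, 163 and 140.1 CPM in the control and at 109.9, 136, 153 and 122 CPM in the apoE2 libraries. The apoE3 libraries had 129.7, 141, 155 and 151 CPM and the apoE4 libraries 451, 258, 321 and 415 CPM. The apoE4 libraries were all above the 12 others, and no other member apart from *Gxylt1* differed more from control. *Cmtm4* was higher by 1.34 ± 0.16 (SE) on the log2 scale, or 2.527-fold, and the mean level was 142.9 ± 15.44 CPM in control against 361.3 ± 87.89 CPM in apoE4 treated neurons (SD, n = 4 each). Its 3′UTR made up 89.7% of the annotated exon length.

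*Gxylt1* (chr15:93239742-93275179, minus strand) encodes the glucoside xylosyltransferase that adds the first xylose to O-glucose on the EGF repeats of Notch receptors. The control libraries 1 to 4 had 8.82, 5.796, 8.38 and 11.1 CPM of *Gxylt1*, and the apoE2 libraries 8.74, 7.41, 8.96 and 10.96 CPM. With apoE3 the values were 12.7, 8.405, 11.7 and 19.2 CPM, and with apoE4 31.1, 14.96, 21.98 and 34.96 CPM. Within each group replicate 2 was the lowest and replicate 4 the highest, and apoE3 replicate 4 exceeded apoE4 replicate 2, so that these groups overlapped. The difference between apoE4 and control was the widest of the 10 genes, 1.60 ± 0.29 (SE), with 1.37 to 1.82 within the replicate numbers.

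The ubiquitin system was represented by *Otud3* and *Rnf41*. *Otud3* (chr4:138895379-138913945, minus strand) encodes a deubiquitinase of the OTU family, which removes ubiquitin from other proteins. Levels of *Otud3* were 9.502, 10.1, 9.04 and 8.17 CPM in control replicates 1 to 4 and 7.96, 10.7, 9.997 and 10.3 CPM with apoE2. They were 10.8, 9.18, 9.52 and 11.2 CPM with apoE3 and 20.3, 14.6, 17.7 and 22.3 CPM with apoE4. The lowest apoE4 library stood above the highest of the other 12, and *Otud3* was higher by 1.02 ± 0.15 (SE). *Rnf41* (chr10:128411657-128441441, plus strand) encodes the ubiquitin ligase Nrdp1, which takes part in the turnover of ErbB receptors. In replicates 1 to 4 *Rnf41* was at 92.8, 102, 104 and 91.9 CPM in the control and at 98.8, 105, 102 and 103 CPM in the apoE2 libraries. The apoE3 libraries had 97.7, 97.5, 102 and 91.01 CPM and the apoE4 libraries 136, 130.1, 135 and 151 CPM. Its apoE4 libraries were the most alike of the 10 genes, with a coefficient of variation of 6.706%, and the difference, 0.50 ± 0.07 (SE), was the smallest.

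Regulators of transcription and chromatin made up 3 members. *Atxn1l* (chr8:109726451-109737739, minus strand) encodes the ataxin-1 paralog that stabilizes the repressor Capicua. The control libraries 1 to 4 had 61.2, 64.8, 64.4 and 58.4 CPM of *Atxn1l*, and the apoE2 libraries 56.4, 63.97, 66.2 and 59.6 CPM. With apoE3 the values were 65.05, 64.5, 66.05 and 69.6 CPM, and with apoE4 112, 80.1, 89.8 and 103 CPM. The 12 other libraries spanned 56.4 to 69.6 CPM and all apoE4 libraries were higher, with a difference of 0.63 ± 0.10 (SE). *Ino80d* (chr1:62958418-63114667, minus strand) encodes a subunit of the INO80 chromatin remodeling complex. Levels of *Ino80d* were 41.9, 33.5, 33.05 and 33.2 CPM in control replicates 1 to 4 and 34.3, 38.3, 43.2 and 32.9 CPM with apoE2. They were 37.2, 36.9, 38.6 and 32.02 CPM with apoE3 and 86.3, 50.6, 60.9 and 63.8 CPM with apoE4. Control replicate 1 was above the other control libraries, and the apoE4 libraries were above all 12 others, at 0.88 ± 0.15 (SE). *Zbtb34* (chr2:33406108-33431324, minus strand) encodes a zinc finger protein with a BTB domain. In replicates 1 to 4 *Zbtb34* was at 8.59, 8.17, 5.86 and 5.39 CPM in the control and at 4.79, 5.92, 7.35 and 5.32 CPM in the apoE2 libraries. The apoE3 libraries had 8.15, 7.91, 6.48 and 7.94 CPM and the apoE4 libraries 22.2, 11.3, 14 and 17.5 CPM. It was the lowest of the 10 genes per length, at 1.061 CPM per kb of exon in control, and its apoE4 libraries were again above all others, at 1.21 ± 0.22 (SE).

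*Xpo4* (chr14:57577521-57665430, minus strand) encodes the nuclear transport receptor exportin-4, which carries eIF5A and Smad3 out of the nucleus. The control libraries 1 to 4 had 12.96, 13.1, 12.6 and 12.6 CPM of *Xpo4*, and the apoE2 libraries 14.8, 11.6, 13.2 and 12.4 CPM. With apoE3 the values were 13.8, 13.2, 12.8 and 12.9 CPM, and with apoE4 29.4, 16.5, 19.9 and 26.3 CPM. The control libraries differed by 0.2564 CPM (SD), the smallest spread of the 10 genes in any group, and the apoE4 difference came to 0.84 ± 0.15 (SE). *Tmem248* (chr5:130217081-130243765, plus strand) encodes a transmembrane protein of unknown function. Levels of *Tmem248* were 51.1, 52.6, 56.5 and 51.4 CPM in control replicates 1 to 4 and 48.1, 53.4, 60.9 and 54.5 CPM with apoE2. They were 53.7, 56.2, 61.8 and 58.3 CPM with apoE3 and 113, 78.7, 90.1 and 105 CPM with apoE4. All 4 apoE4 libraries were above the other 12, with a difference of 0.87 ± 0.11 (SE). *Fam168b* (chr1:34813219-34843065, minus strand) encodes MANI, a membrane protein described as an inhibitor of neurite outgrowth. In replicates 1 to 4 *Fam168b* was at 314, 344, 364 and 322 CPM in the control and at 305, 346, 336 and 328 CPM in the apoE2 libraries. The apoE3 libraries had 316, 343, 359.5 and 312 CPM and the apoE4 libraries 606, 449, 498 and 520.1 CPM. It was the highest of the 10 genes per length, at 64.39 CPM per kb of exon in control, with a difference of 0.62 ± 0.10 (SE).

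Taking the 10 genes as a whole, apoE4 against control gave a median log2 difference of 0.88, from 0.50 to 1.60, beside 0.00 over all 17038 tested genes. All 10 were called by edgeR's quasi-likelihood test at an adjusted p under 0.05, with 0.0029812 for *Cmtm4* the smallest and 0.039118 for *Zbtb34* and *Gxylt1* the largest. Over all tested genes 33 were called, or 0.194%, and all 10 members being among them restates how they were chosen. The apoE4 libraries did not overlap the control libraries in any member, and 228 tested genes (1.34%) had all apoE4 above all control libraries. The difference was positive within each of the 4 replicate numbers in all 10 members. The count of called members fell to 4, 5, 6 and 3 without control replicates 1, 2, 3 and 4, to 5 and 3 without apoE4 replicates 1 and 4, and to 0 when only these 2 groups were fitted.

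At the edge of the call, the members *Gxylt1* and *Zbtb34* had the same adjusted p of 0.039118, and only *Elf4*, a member of the ETS family, was called with a larger value, 0.04371. Just outside were *Tet3*, the methylcytosine dioxygenase, with a log2 difference of 1.00 and an adjusted p of 0.05251, and *Zbtb39* with 1.32 and 0.055687. Next were *Snora2b*, a small nucleolar RNA, with 1.99 and 0.055687, and *Ankrd1* with 3.87 and 0.073974. The longest 3′UTRs of *Tet3*, *Zbtb39* and *Ankrd1* had 5669, 3652 and 742 bases.

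ApoE2 and apoE3 treated neurons had the members at levels close to control. These comparisons share the control libraries with the one that chose the genes, and edgeR called 0 of the 10 members in either. For apoE2 against control the median was 0.03, from −0.26 for *Zbtb34* to 0.09 for *Gxylt1*. The percentage of all tested genes called there was 0, and 475 genes but no member had an unadjusted p under 0.05. For apoE3 against control the median was 0.07, from −0.01 for *Fam168b* to 0.61 for *Gxylt1*, 0.00587% of all genes were called, and 1095 genes but no member had an unadjusted p under 0.05. DESeq2 called 0 members in both, where it called 29 genes with apoE2 and 60 with apoE3. With the block 0 members were called with apoE2, where 1.73% of all genes were. The smallest unadjusted p was 0.050883, for *Gxylt1* with apoE3.

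*Gxylt1* was the one member with a call in apoE3 treated neurons once the replicate number was taken as a block. Its mean was 13.02 ± 4.53 CPM there and 8.51 ± 2.155 CPM in control (SD, n = 4 each), and its differences within the replicate numbers were 0.53, 0.54, 0.49 and 0.80. Without the block the difference of 0.61 ± 0.29 (SE) had an adjusted p of 0.76969, and with it 0.0079264. With the block 11.7% of all tested genes were called in this comparison. The astrocyte markers summed to 794 to 5926 CPM in the apoE3 and 513.4 to 2484 CPM in the control libraries and, like *Gxylt1*, were lowest in replicate 2 of each group. Their part in the level of *Gxylt1* was not tested.

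**Figure D2:**
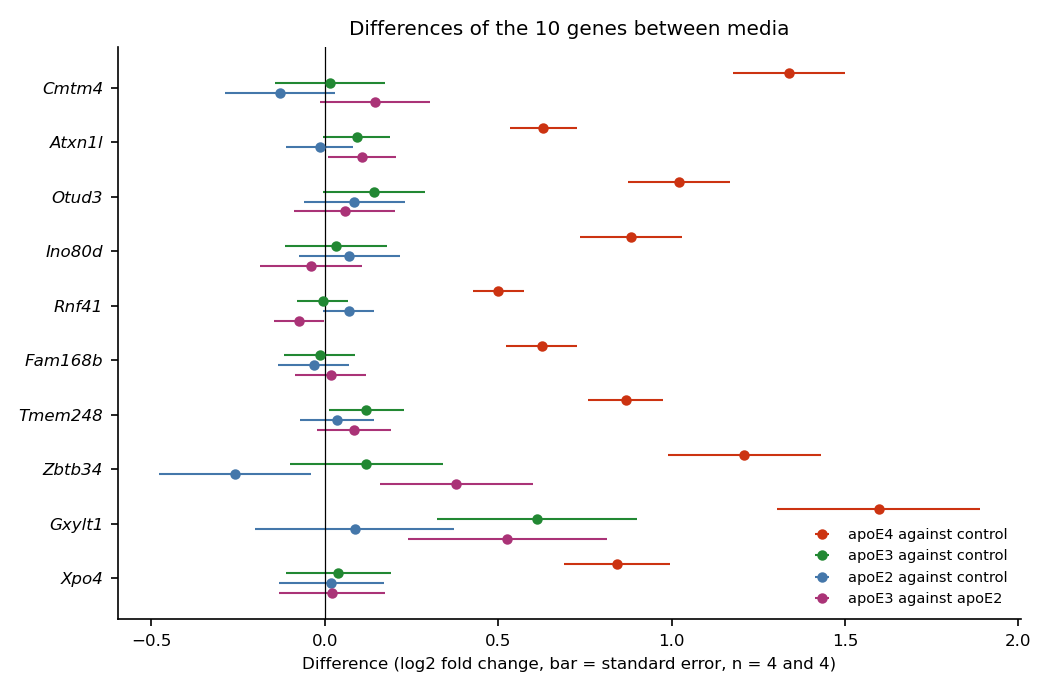
Log2 fold change of each gene (horizontal axis, bars are the standard error, 4 libraries a group) in 4 comparisons, shown by color. The differences of apoE4 from control run from 0.50 to 1.60, while the other comparisons stay between −0.26 and 0.61, with *Gxylt1* the farthest to the right among them.

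The comparison of apoE3 with apoE2 called 0 of the 10 members, and the percentage of all genes called was also 0. The members' median was 0.07, beside 0.02 over all tested genes, with 8 members on the higher and 2 on the lower side. *Gxylt1* had the smallest unadjusted p, 0.087554, at 0.53 (95% interval −0.09 to 1.14), and the largest of the other estimates was that of *Zbtb34*, 0.38 (−0.09 to 0.85). All adjusted p were 0.99969. The intervals were narrow for *Rnf41* (−0.23 to 0.08), *Atxn1l* (−0.10 to 0.31) and *Fam168b* (−0.20 to 0.23), and for *Cmtm4* the interval reached from −0.20 to 0.48. With the replicate block 1.31% of all genes were called and again 0 members, and 389 genes but no member had an unadjusted p under 0.05. DESeq2 called 9 genes and 0 members.

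ApoE4 was also set against the other isoforms, in comparisons that share the apoE4 libraries that chose the genes. Against apoE2, all 10 members were called, where 0.252% of all genes were, with a median of 0.83 and a range from 0.43 for *Rnf41* to 1.51 for *Gxylt1*. That count fell to 2 without apoE2 replicate 1 or 4, to 5 without apoE2 replicate 2 or apoE4 replicate 1 or 4, and to 0 when only these 2 groups were fitted. Against apoE3, 7 members were called, where 0.147% of all genes were, with a median of 0.83. The 3 members without a call were *Xpo4* (0.80, adjusted p 0.058128), *Zbtb34* (1.09, adjusted p 0.094528) and *Gxylt1* (0.98, adjusted p 0.5733). With the replicate block all 10 were called against apoE3 (1.76% of all genes) and all 10 against apoE2 (4.44%).

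Against apoE3 the count depended on single libraries. It was 0 without apoE3 replicate 1 or 2, 4 without apoE3 replicate 3, 2 without apoE3 replicate 4, and 4 without apoE2 replicate 4. Leaving out apoE4 replicate 1, 3 or 4 gave 3, 3 and 1, and leaving out apoE4 replicate 2 gave 9. When only these 2 groups were fitted, 0 members were called.

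The 4 apoE4 libraries differed among themselves in the same order for most members. Replicate 2 was the lowest in all 10 members, where 27.7% of tested genes were lowest in it, and the highest was replicate 1 in 7 members and replicate 4 in 3. The median of the members lay 1.16, 0.55, 0.78 and 1.01 above the control mean (log2) in apoE4 replicates 1 to 4. Within the replicate numbers, the medians of the apoE4 differences from control were 1.12, 0.50, 0.78 and 1.04. Every apoE4 library was thus above every library of the other groups in this median, which ran from −0.14 to 0.11 in those 12.

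Replicate 2 was also the lowest of the apoE4 libraries in the percentages and marker sums given next. Of these, *Lars2* alone followed the whole order of the members' medians. That order was reversed in the reads counted on genes, 15720376, 32455651, 19970618 and 18909028 in apoE4 replicates 1 to 4. The reads assigned to no single gene made up 73.07, 38.64, 64.98 and 63.53% in apoE4 replicates 1 to 4. The gene *Lars2* held 12.18, 0.3592, 8.13 and 9.825% of the counts on genes in the same order, and the origin of these reads was not tested. Values of libraries in the other groups are given beside those of apoE4. ApoE2 replicate 4, with 38.36% of reads on no single gene, had a member median of −0.04, and apoE2 replicate 1, with 73.75%, had −0.14. ApoE3 replicate 1, with 71.55%, had 0.07. Summed astrocyte markers were 2494, 696.1, 2226 and 4628 CPM in apoE4 replicates 1 to 4, and 3774, 794, 2363 and 5926 CPM in the apoE3 libraries, whose member medians were 0.07, 0.04, 0.09 and 0.11. The part of these properties in the level of the members, or in the spread among the apoE4 libraries, was not tested.

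**Figure D3:**
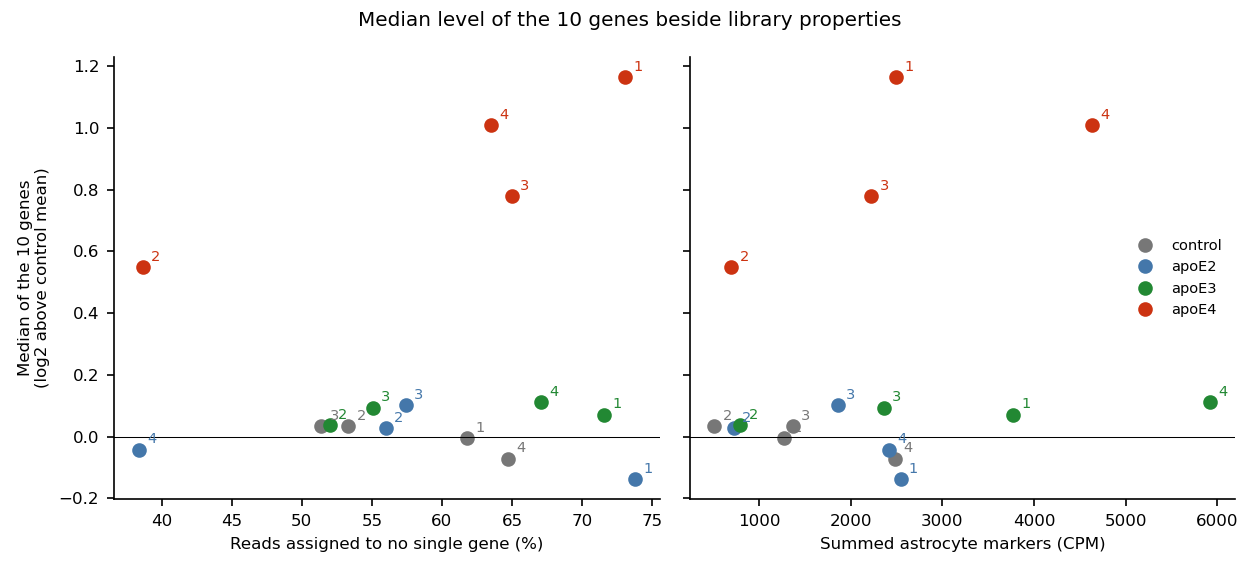
Median of the 10 genes above the control mean (vertical axis, log2) in each of the 16 libraries, against the percent of reads assigned to no single gene (left) and the summed CPM of 7 astrocyte markers (right). Colors give the group and numbers the replicate. The apoE4 libraries lie at 0.55 to 1.16 and the other 12 libraries at −0.14 to 0.11. On both horizontal axes the apoE4 libraries lie within the range of the others, and the part of these properties was not tested.

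Markers of neurons and of other cell types are given beside these values. For the neuron markers apoE4 replicates 1 to 4 had 4337, 6543, 6137 and 3397 CPM and the control replicates 4594, 6061, 6474 and 4158 CPM, with 0 of 7 called. Of 6 tested astrocyte markers 0 were called in apoE4 treated neurons, with a median log2 difference of 0.72, and 2 with the replicate block, both higher. Of 7 mural or fibroblast markers 0 were called (median 0.73) and 1 with the block, higher, with sums of 21.23 to 334.5 CPM in apoE4, 19.15 to 372 CPM in apoE3 and 18.53 to 198.1 CPM in control libraries. Of 7 oligodendrocyte lineage markers 0 were called (median 0.53) and 1 with the block, higher, and 0 of 6 microglia markers either way. Of the 2 endothelial markers tested 0 were called (median 0.74) and 1 with the block, higher, at sums of 0.966 to 1.623 CPM in control and 1.368 to 3.663 CPM in apoE4 libraries. *Flt1*, one of them, was the 1 marker of any list with an unadjusted p under 0.05.

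The pattern of the 10 genes over the libraries is given as a description, since all were chosen for being higher with apoE4. After the mean of each replicate number was taken away, the correlation of a member with the mean of the other 9 over the 16 libraries was 0.929 for *Rnf41* to 0.996 for *Tmem248*. The group differences were left in, so the choice of the genes for their apoE4 difference sets high values in advance. The libraries also share their depth and composition. The tested genes outside the 10 whose pattern was most like their mean were *Mafg* (0.991), *Gm28933* (0.984), *Gm340* (0.983), *Elk4* (0.983), *Zfp652* (0.982), *Mfsd4a* (0.98), *Hif1an* (0.979), *Cbx5* (0.978), *Zfp280b* (0.977) and *Eif4ebp2* (0.976).

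Several of these look-alikes are regulators. *Mafg* encodes a small Maf protein, a partner of NRF2, and its means were 85.54, 88.91, 97.01 and 178.7 CPM in control, apoE2, apoE3 and apoE4 treated neurons. *Hif1an* encodes the asparagine hydroxylase that limits HIF activity, and its means were 31.99, 30.21, 32.66 and 53.45 CPM in the same order. *Eif4ebp2* encodes a repressor of cap-dependent translation, and its means were 6.326, 6.068, 10.67 and 52.96 CPM. It thus had the widest difference of the look-alikes, 3.07 ± 0.32 (SE, log2). *Cbx5*, which encodes heterochromatin protein 1 alpha, was at 326.1, 344.8, 359.9 and 582.4 CPM but was not called (adjusted p 0.090002). *Elk4* and *Mfsd4a* overlap on opposite strands, and whether the counting used the strand is not stated, so their reads may not be separable.

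Among the members, annotated exons of other genes covered 5.82% of the exons of *Tmem248*, 3.09% of *Xpo4* and 2.43% each of *Ino80d* and *Fam168b*, and 0% of the other 6. The tested genes that start next before and after each member on the chromosome, looked up after the values were seen, were 20 in all. Of these, *Ino80dos* overlaps *Ino80d* and *Gm37127* lies within *Fam168b*, each on the other strand. Called in apoE4 against control were 0 of the 20, with or without the block, while 1 (*Gm24447*) had an unadjusted p under 0.05. Their median log2 difference was −0.04. *Cmtm3*, which ends 518 bases from the end of *Cmtm4* on the other strand, was at 0.78 ± 0.81 (SE), and *Nabp2*, next to *Rnf41*, at −0.10 ± 0.12. *Zbtb43*, the neighbor and relative of *Zbtb34*, was at −0.01 ± 0.08.

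Genes of the members' families and complexes were listed to see whether they moved too. Of 86 such genes 83 were in the files and 79 were tested, and 0 were called in apoE4 against control, with 49 higher and a median of 0.04, beside 0.00 over all tested genes. An unadjusted p under 0.05 was found for 4 of them (*Gxylt2*, *Otud4*, *Otulin* and *Zbtb37*), and DESeq2 called 1. With the replicate block 5 were called (3.3% of all genes were), all of them higher: *Zbtb37*, *Gxylt2*, *Erbb2*, *Notch3* and *Otud7b*. *Zbtb37*, a zinc finger relative of *Zbtb34* with a 3′UTR of 16999 bases, was at 21.54, 24.08, 22.23 and 40.37 CPM in control, apoE2, apoE3 and apoE4 treated neurons, a difference of 0.91 ± 0.22 with an adjusted p of 0.18037 without the block and 0.001148 with it. *Gxylt2*, which has the same enzymatic role as *Gxylt1*, was at 3.432, 5.282, 5.118 and 9.369 CPM. Its difference of 1.45 ± 0.45 had an adjusted p of 0.63302 without the block and 0.0045272 with it.

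The other partners of *Gxylt1* included the receptors whose sugars it extends. *Notch3* was at 6.907 CPM in control, 17.77 CPM in apoE3 and 15.72 CPM in apoE4 treated neurons, and *Notch1* at 25.56, 51.88 and 43.15 CPM, so both were at least as high with apoE3. *Poglut1*, which adds the O-glucose, was at 0.10 ± 0.12, and *Xxylt1*, which adds the second xylose, at 0.04 ± 0.12. Among partners of *Rnf41*, *Erbb2* was at 1.73 CPM in control and 4.406 CPM in apoE4 treated neurons but also at 4.083 CPM with apoE3, and *Usp8*, the deubiquitinase that stabilizes Nrdp1, was at 0.04 ± 0.14. *Erbb3*, another partner, had 0.97 ± 0.75 and was not called. *Otud7b*, an OTU deubiquitinase, was at 19.9, 28.17 and 27.7 CPM in control, apoE3 and apoE4 treated neurons.

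In the remaining families no gene was called in apoE4 against control with or without the block. The 14 INO80 subunits had a median of −0.06 and 4 of them were higher, with *Ino80* itself at 0.10 ± 0.10. Of the 11 genes of the Capicua complex and its repressed targets 10 were on the higher side with a median of 0.10, *Cic* at 0.33 ± 0.16 and *Atxn1* at 0.09 ± 0.10. The 12 exportins and transport partners had a median of 0.00, with the cargo *Eif5a* at −0.02 ± 0.12 and *Xpo1* at −0.10 ± 0.08. *Cmtm6*, of the same family as *Cmtm4*, was at 0.44 ± 0.33. *Fam168a*, the paralog of *Fam168b*, was at 0.14 ± 0.16.

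In the other comparisons 0 of the 79 relatives were called without the block. For apoE3 against control 8 were called with the block, 6 of them higher, where 11.7% of all genes were called. These were *Notch1*, *Notch3*, *Erbb2*, *Otud7b*, the cyclin gene *Ccnd1* at 1.14 ± 0.54 and *Spred1*, an inhibitor of Ras signaling, at 0.50 ± 0.22 on the higher side, with *Otub2* at −0.50 ± 0.21 and *Zbtb18* at −0.28 ± 0.24 on the lower. *Smad3*, the exportin-4 cargo, was the 1 relative called with the block for apoE2 against control, where 1.73% of all genes were. It was lower, with means of 52.29 CPM in control, 32.44 CPM in apoE2, 49.17 CPM in apoE3 and 56.41 CPM in apoE4 treated neurons. For apoE4 against apoE2 4.44% of all genes were called with the block. Among the relatives these were *Smad3*, *Zbtb37* and *Zbtb10* (13.7 CPM with apoE2 and 19.73 CPM with apoE4) higher and *Zbtb18* lower (−0.36). *Zbtb37* and *Gxylt2* were called higher for apoE4 against apoE3, where 1.76% of all genes were called. For apoE3 against apoE2, where 1.31% of all genes were called, *Ccnd1* and *Smad3* were called higher and *Zbtb18* lower (−0.45).

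**Figure D4:**
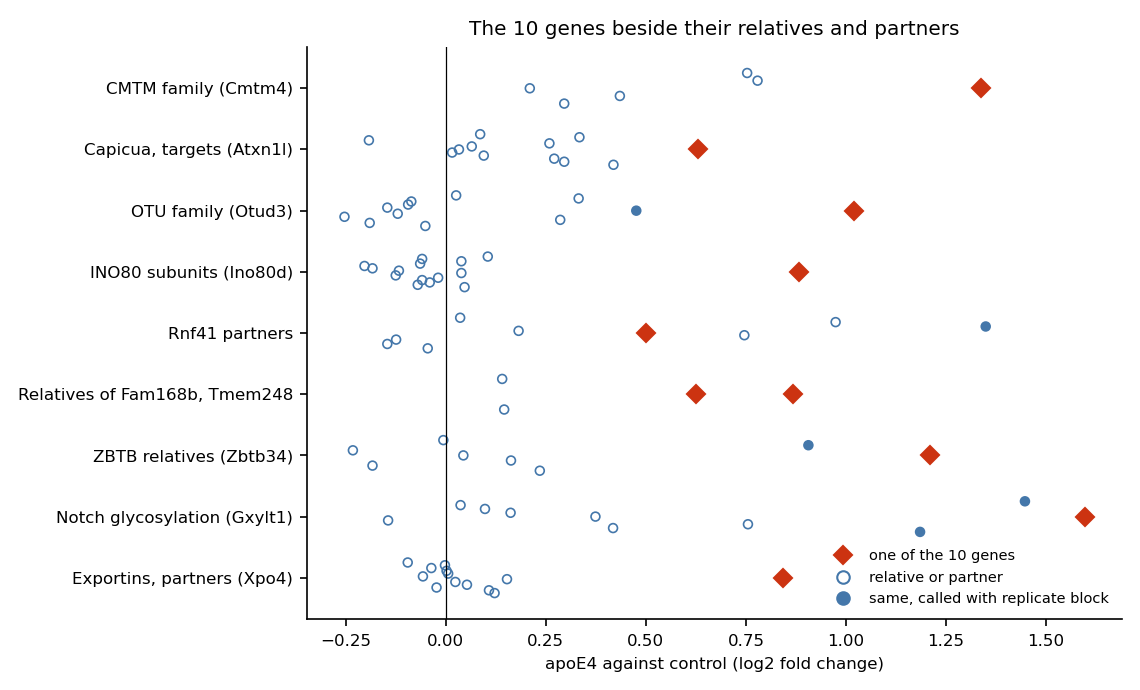
Log2 fold change of apoE4 against control (horizontal axis) for the 10 genes (red diamonds) and the 79 tested relatives and partners (blue circles, filled where called with the replicate block), by list. The 10 genes lie from 0.50 to 1.60, and the relatives center near 0 with a median of 0.04 and 5 filled circles.

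The relation to 3′UTR length was looked at in the other tested genes, with the 10 left out. For apoE4 against control the median log2 difference was 0.00 for the 6072 genes with less than 1 kb, 0.00 for 3567 genes with 1 to 2 kb, 0.01 for 3133 genes with 2 to 4 kb, 0.05 for 822 genes with 4 to 6 kb and 0.07 for 357 genes with more than 6 kb. The medians thus lay higher in the classes of longer 3′UTRs. For apoE3 against control they went the other way, with 0.06, 0.03, 0.01, −0.01 and −0.05, and for apoE2 against control they were 0.03, 0.02, 0.01, 0.01 and 0.01. The median of the class over 6 kb with apoE4 was 0.03 without control replicate 4.

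Of the other 23 genes called in apoE4 against control 17 had an annotated 3′UTR, and 15 of these were above the upper quartile in length. They included *Ago2*, the Argonaute endonuclease (11064 bases), and *Dcp2*, the decapping enzyme (7240 bases). With the replicate block, the genes called were 131 of 6072 in the class under 1 kb, of which 127 were higher, and 39 of 357 in the class over 6 kb, of which 39 were higher. Genes with a site had medians of 0.007 (miR-30a-5p) to 0.043 (miR-9-5p) over the 19 miRNAs, and those without had 0.002 to 0.008. The median with a site was the higher for each of them but miR-30a-5p (0.007 against 0.008), and for miR-128-3p, miR-132-3p and miR-34a-5p it was 0.031, 0.014 and 0.025. These are values beside each other, without a test, and genes with a site also had longer 3′UTRs.

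**Figure D5:**
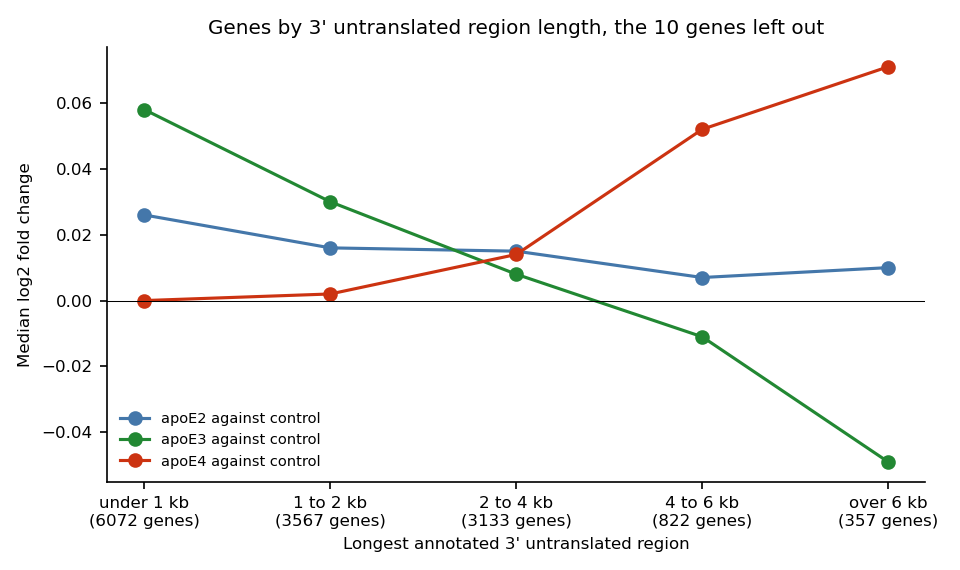
Median log2 fold change against control (vertical axis) of tested genes other than the 10, by class of the longest annotated 3′UTR (horizontal axis, gene numbers in brackets), for apoE2, apoE3 and apoE4. The apoE4 line ends at 0.07 and the apoE3 line at −0.05 in the class over 6 kb, while the apoE2 line stays between 0.01 and 0.03.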

How the data were processed

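The study depleted ribosomal RNA, sequenced the libraries, aligned the reads to mm10 with STAR and counted them per gene with HTSeq, and the authors deposited raw counts per gene symbol. The annotation they counted on and the use of strand are not given in the sources used here. Lines that name no gene held 38.36 to 73.75% of reads and entered neither library sizes nor tests.

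The counts were fitted with edgeR 4.0.16 in R 4.3.3 (TMM, filterByExpr at 10 counts, 15 in total and a share of 0.7, 1 coefficient per group over 16 libraries, quasi-likelihood test), with p-values adjusted by Benjamini-Hochberg over 17038 genes. The script was tested on simulated data, which held no differences between replicate numbers. That test therefore does not cover this part of the spread in the main fit. Intervals are 95% from the same fit. Groups came from the labels. Deviations from group means correlated at 0.362 to 0.831 between libraries of the same number. Libraries that shared neither number nor group gave −0.736 to 0.569. All same-number values were over 0.1, the criterion for pairing, so the numbers were taken to pair the cultures. This cut cannot establish pairing, as libraries without a shared number also passed it. Their highest value, 0.569, lay above those of replicate number 1 (0.362 to 0.552). The study names no pairing, so the block rests on an assumption. Blocked values are given where they change a call. The main fit left the replicate number out, so its p-values measure the spread between all cultures of a group. P-values with the block measure the spread left after the replicate numbers. The common dispersion was 0.1318 without the block and 0.0178 with it. Log values used a prior count of 2. Gene models are of GENCODE M21, which matched 96.82% of tested genes, and 19 of 20 listed miRNAs had a RefSeq sequence.

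The members and lists were chosen with earlier results of these data known. Named were all members, relatives called in any comparison (none without the block, so those called with it) or with a wide change, the 10 genes most correlated with the members and those at the edge of the call. Neighboring genes, *Ago2*, *Dcp2* and further relatives and partners were named after their values were seen. Alternatives were DESeq2 1.42.0, its size factors, no filter, 1 CPM in 8 libraries, the 2 groups alone, offsets for 3′UTR length or for gene length and GC, the replicate block, the study's criterion (at least 2-fold, unadjusted p under 0.05) and each library left out.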

Additional observations from a re-analysis of the deposited data

Results flagged for a closer look

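In 2 of the 40 sets of 4 libraries (10 genes in 4 groups), 1 library lay far from the other 3, a rate at which chance flags about 1 in 20 such sets. *Ino80d* was at 41.87 CPM in control replicate 1 and at 33.05 to 33.53 CPM in the other control libraries. *Zbtb34* was at 6.476 CPM in apoE3 replicate 3 and at 7.913 to 8.151 CPM in the other apoE3 libraries.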

How the results depend on the processing

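Of the members' 120 values for apoE4 against control (10 genes under 12 settings) 94 kept their call and 26 lost it. The 12 settings include only the lowest and the highest fold change over the fits with 1 library left out. Over all of those fits *Zbtb34*, *Xpo4* and *Gxylt1* lost the call in most. *Cmtm4*, *Otud3* and *Tmem248* kept it in each. Since the genes were chosen for being higher in these apoE4 libraries, their direction, also against apoE3 and apoE2, is no sign of stability. Without the low-count filter the counts were 4 for apoE4 against control, 2 against apoE3 and 6 against apoE2. When only the 2 groups compared were fitted, each of these was 0. At the study's criterion (2-fold or more, unadjusted p under 0.05) they were 4, 2 and 3. No count over all tested genes is given for that criterion, so these numbers have no background beside them. With 1 library left out the members called ran from 3 to 10 against control, from 0 to 9 against apoE3 and from 2 to 10 against apoE2.

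With the replicate number as a block, 1 member (*Gxylt1*) was called for apoE3 against control, as it was with the block and offsets for 3′UTR length (1) or for gene length and GC (1), and the block changed no call of apoE2 against control or of apoE3 against apoE2, which stayed at 0 members. The block brought *Zbtb34*, *Xpo4* and *Gxylt1* to a call for apoE4 against apoE3. Over all tested genes, called genes for apoE4 against control, apoE3 and apoE2 were 33, 25 and 43, and became 563, 300 and 757 with the block, 91, 69 and 163 with DESeq2, 0, 1 and 3 with only 2 groups fitted and 23, 16 and 34 without the filter. For apoE2 and apoE3 against control and apoE3 against apoE2 they were 0, 1 and 0, and became 294, 1990 and 224 with the block and 29, 60 and 9 with DESeq2. Called relatives were 5 with the block, 4 with the block and 3′UTR offsets, 5 with the block and gene length and GC offsets, 1 with DESeq2, 1 at the fold criterion and 0 to 1 with 1 library left out (1 without apoE4 replicate 2). The median of genes with a 3′UTR over 6 kb was 0.032 to 0.094 with 1 library left out. With 8-base sites the members held a median of 3 of the miRNAs' sites, against 7.5 with 7 bases. The causes were not tested. With 4 cultures a group, calls near the threshold rest on single libraries.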
